A study of Mus musculus with 10 samples.

Results

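The liver clock was examined through 10 genes, Arntl, Npas2, Per1, Per2, Per3, Nr1d1, Nr1d2, Dbp, Ciart and Nfil3, chosen by name for their place in the circadian clock or at its output. They are 10 of the 54532 genes with a value in the livers of 10 mice. Of these 10 genes, 9 had enough reads for the comparison across all genes, and Npas2 did not. Poly-A RNA was sequenced from 5 ASK1f/f and 5 ASK1+hep mice, littermates on a C57BL/6J background, to ask what hepatic overexpression of the stress kinase ASK1 does to the liver. Both groups carry murine ASK1 cDNA behind a lox-stop-lox cassette in ROSA26. In ASK1+hep mice, Alb-Cre, whose albumin promoter is active in hepatocytes, removes the stop. In both groups, high fat diet (HFD) began at the age of 6 weeks and lasted 7 weeks. Food was withdrawn for 5 h before tissue collection, which in the study's methods falls about 6 h after lights on. The labels give no collection time for single animals.

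The clock of a cell is a feedback loop in transcription. ARNTL (BMAL1), paired with CLOCK or NPAS2, binds E-box elements and switches on the Per genes, Nr1d1, Nr1d2, Dbp and Ciart. PER proteins, with their CRY partners, then block that pair, and the nuclear receptors REV-ERBα and REV-ERBβ, encoded by Nr1d1 and Nr1d2, repress Arntl, Npas2 and Nfil3 through ROR elements. DBP activates and NFIL3 represses genes with D-box elements. In mouse liver, transcripts of Arntl and Nfil3 peak around the end of the night and those of Dbp and the Per genes peak towards the evening, so that they stand in roughly opposite phase.

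The letters of these elements were found in the promoters of 5 of the 9 genes listed in the set of RefSeq promoters used here. That set, which holds no entry for Per2, gives 250 bases before to 50 after each start site (GRCm38.p6). Stretches with a match are printed here because these genes are in pairs with the lowest p over the livers, given further on. Whether a match bears on the relation of these genes over the livers was not tested. Capitals mark the match, and positions count from the start site, whose first transcribed base is 0. Nfil3 (from position -30, chr13:52981040-52981069, minus strand) and Arntl (from position 20, chr7:113207531-113207560, plus strand) hold a ROR element, TAGGTCA or TGGGTCA on either strand, which is in 6.45% of 32851 promoters.
Nfil3: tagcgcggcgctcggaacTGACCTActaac
Arntl: aggcagaaagTAGGTCAgggacggaggtgc
Per3 (from position -220, chr4:151044786-151044885, minus strand) holds a pair of D-box elements, TTATGTAA or TTACGTAA on either strand, which are in 1.06% of promoters.
Per3: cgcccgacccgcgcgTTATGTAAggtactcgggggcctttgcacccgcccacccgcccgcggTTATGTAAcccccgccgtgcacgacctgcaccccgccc
Ciart (from position -130, chr3:95882254-95882358, minus strand) and Per1 (from position -190, chr11:69098759-69098818, plus strand) hold the E-box CACGTG, which is in 7.15% of promoters.
Ciart: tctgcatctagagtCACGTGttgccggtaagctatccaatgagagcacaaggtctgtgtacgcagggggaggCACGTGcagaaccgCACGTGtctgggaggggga
Per1: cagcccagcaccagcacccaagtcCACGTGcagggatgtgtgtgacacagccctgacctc
Ciart holds 3 E-boxes, at positions -116, -58 and -44. Per3 holds its D-boxes at -205 and -158. The cyclic AMP element TGACGTCA, which is in 1.79% of promoters, was in none of the windows of the 9 genes. Arntl and Per1 have a second listed start site each, without a match, and Dbp, Nr1d1, Nr1d2 and Npas2 hold no match in these windows.

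Libraries held 14411830 to 16056102 reads on genes in ASK1f/f livers (n = 5) and 13367742 to 16163378 in ASK1+hep livers (n = 5), as recovered from FPKM, reads scaled by the length of the gene and the size of the library. Map3k5, the gene of ASK1, was at 4.71 to 6.88 FPKM in ASK1f/f livers 1 to 4 and at 7.68 to 16.4 FPKM in ASK1+hep livers. The highest of the 10 values, 19.8 FPKM, was that of the library labelled ASK1f/f replicate 5, which is against its label. For Fgf21, a hormone that the liver secretes under metabolic stress, the same library was on the side of its label, at 3.21 FPKM, with 2.46 to 4.74 FPKM in ASK1f/f livers and 7.40 to 30.1 FPKM in ASK1+hep livers, which did not overlap. Genotypes are those of the labels in all comparisons. Marker genes of Kupffer cells, the macrophages of the liver, were lower on average in ASK1+hep livers for 5 of 5 genes, 0 of them at an unadjusted p under 0.05, with summed levels of 52.7 to 128 FPKM against 81.5 to 140 FPKM. A lower mean was not particular to Kupffer cells. Endothelial, stellate and cholangiocyte markers were lower for 3 of 4 genes each, 0 of them at an unadjusted p under 0.05 in limma. Hepatocyte markers were higher for 3 of 5 genes, 1 of them at that p, and the 1 lymphocyte marker tested was higher. In whole liver, fewer cells of a type and less RNA per cell cannot be told apart, and the part of these markers in the values below was not tested.

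Among the 10 genes, Dbp, a D-box activator, had the highest level per length, with a mean of 42.4 ± 14.9 FPKM over the livers (SD, n = 10). Nr1d1 followed at 19.6 ± 6.99, below Dbp in 10 of 10 livers. Nr1d2 (14.5 ± 4.02), Ciart (13.2 ± 5.11), Nfil3 (11.4 ± 6.76) and Per1 (9.17 ± 3.23) came next, and the order of neighbours from Nr1d1 to Per1 held in only 4 to 6 of 10 livers, so neighbours did not differ beyond their spread. Farther apart in this run, Nr1d1 was above Per1 in 9 of 10 livers and Nr1d2 above Per1 in 8. Per1 was above Per2 (5.96 ± 1.70) in 9 of 10 livers, and Per2 was above Per3 (4.00 ± 0.844) in 10 of 10. Arntl (0.161 ± 0.0432 FPKM) and Npas2 (0.0214 ± 0.0225 FPKM), the activators, were the lowest. All 9 libraries other than ASK1+hep replicate 3 held fewer Npas2 reads than the 5 found there, and 2 held none.

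Nfil3, Per1, Ciart and Dbp varied more between mice of the same genotype than most genes did. Over 10051 genes with a mean of at least 1 FPKM, the median SD of log2(FPKM + 1) within genotype was 0.22. The SD was 0.78 for Nfil3, 0.66 for Per1, 0.60 for Ciart and 0.53 for Dbp, and 1.32%, 2.48%, 3.49% and 5.59% of genes, respectively, had a larger one. Nr1d2 (0.41) and Nr1d1 (0.39) stood between, while Per2 (0.26) and Per3 (0.24) varied about as much as a typical gene. The SD of Per1 includes 1 liver far below the others, ASK1+hep replicate 4. That liver was at 1.91 FPKM with 159 reads, against a median of 9.38 FPKM in its group. The SD of Per1 without it was not worked out.

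**Figure D1:**
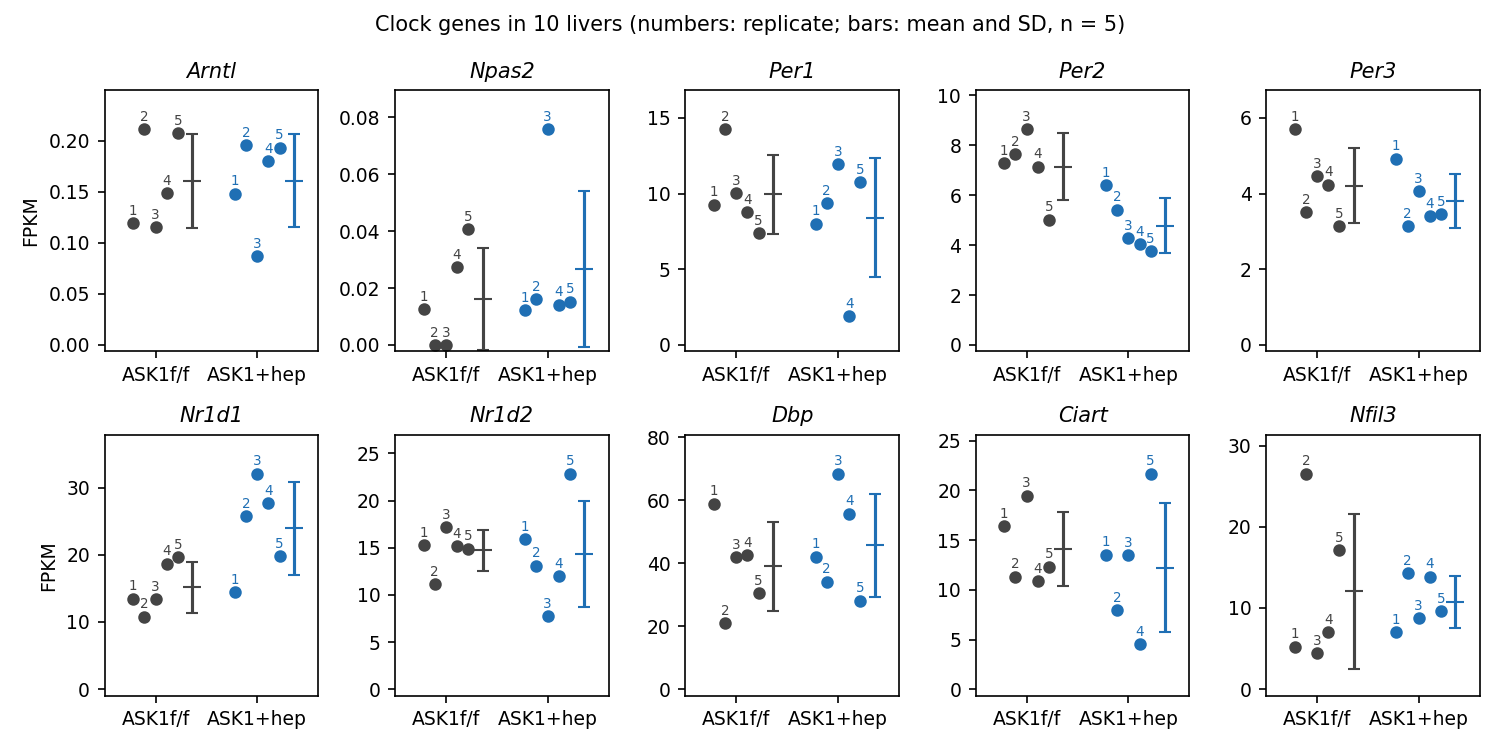
FPKM of the 10 clock genes in each liver by genotype (vertical axes, FPKM, each gene on its own scale; points, livers numbered by replicate; bars, mean and SD, n = 5). Per2 lies lower and Nr1d1 higher in ASK1+hep livers with some overlap, and the groups overlap for the other 8 genes as well.

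Per2 was lower and Nr1d1 higher in ASK1+hep than in ASK1f/f livers at an unadjusted p, but neither passed the threshold after adjustment over all genes, and the other 7 genes tested differed by less than the spread between mice. Across the genome, limma on log2(FPKM + 1) called 0 of 13306 genes (0.0%) at an adjusted p of 0.05, with a lowest adjusted p = 0.355. It had 768 genes at an unadjusted p under 0.05, and limma-voom with quality weights called 1 gene. Of the 9 clock genes tested, 2 had an unadjusted p under 0.05, against 5.77% of all genes. One, Nr1d1, was higher and the other, Per2, lower, while 3.05% of all genes were higher and 2.72% lower at that p. The groups overlapped for all 10 clock genes, whereas 0.864% of the genes tested did not overlap.

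Arntl, the activator without a redundant partner in the core loop (chr7:113207465-113314126), was at 0.119, 0.211, 0.116, 0.148 and 0.207 FPKM in ASK1f/f livers 1 to 5, and at 0.148, 0.195, 0.0868, 0.180 and 0.193 FPKM in ASK1+hep livers 1 to 5. Livers with low and high values occurred in both groups, and the log2 fold change was 0.00 (SE 0.044, limma). At so low a level the log2(FPKM + 1) scale shrinks both the fold change and its SE. On the recovered reads, limma-voom put the log2 fold change at -0.0045, and at 0.18 with quality weights. Arntl received 9 to 25 reads per liver. The exact 95% Poisson intervals of the lowest liver (4.12 to 17.1 reads) and the highest (16.2 to 36.9 reads) touched. These intervals cover counting error only. Over the libraries, chi-square per degree of freedom against counting alone was 1.29 for Arntl, 26.7 for Per3 and 233 for Dbp. It is a ratio of variances that grows with the number of reads, so it does not rank the genes by spread. The SD over the mean of FPKM was 0.27 for Arntl, 0.21 for Per3 and 0.35 for Dbp. Npas2, which can replace CLOCK beside ARNTL, had 0 to 5 reads per liver, so that no difference was detectable at this depth.

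Per2, a repressor whose loss weakens rhythms (chr1:91415982-91459324, minus strand), was at 7.29, 7.66, 8.64, 7.15 and 5.02 FPKM in ASK1f/f livers 1 to 5. In ASK1+hep livers 1 to 5 it was at 6.40, 5.42, 4.28, 4.04 and 3.77 FPKM. Only the library labelled ASK1f/f replicate 5 fell among the ASK1+hep livers, below replicates 1 and 2 of that group. The means were 7.15 ± 1.33 and 4.78 ± 1.10 FPKM (SD, n = 5). In limma, the log2 fold change was -0.50 (SE 0.16) with an unadjusted p = 0.00789 and an adjusted p = 0.812. Over all splits of the livers, the exact two-sided permutation p was 0.0238 (n = 5 per group, smallest possible 0.00794). Leaving that library out because of its Map3k5 value moved the log2 fold change to -0.60 (limma, adjusted p = 0.406). With each liver left out in turn, the log2 fold change ranged from this value, the farthest from 0, to -0.43.

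Its relatives stood apart less. Per1, which also answers directly to glucocorticoid and cyclic AMP signals, was at 9.28, 14.2, 10.0, 8.79 and 7.40 FPKM in ASK1f/f livers and at 8.02, 9.38, 12.0, 1.91 and 10.7 FPKM in ASK1+hep livers. ASK1+hep replicate 4 was far below every other liver, with 159 reads, and it set the direction of the difference. The log2 fold change of Per1 was -0.35 (SE 0.35), and 0.027 without that liver. Per3, a period gene that the core loop can spare, lay at 3.13 to 5.70 FPKM in ASK1f/f and 3.13 to 4.92 FPKM in ASK1+hep livers, with a log2 fold change of -0.11 (SE 0.15).

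Nr1d1, encoding REV-ERBα (chr11:98767932-98775333, minus strand), was at 13.5, 10.8, 13.4, 18.7 and 19.6 FPKM in ASK1f/f livers 1 to 5. In ASK1+hep livers 1 to 5 it was at 14.5, 25.7, 32.1, 27.7 and 19.8 FPKM. Here 4 of the 5 ASK1+hep livers were above every ASK1f/f liver, replicate 5 only by a little (19.8 against 19.6 FPKM). The exception, ASK1+hep replicate 1 at 14.5 FPKM, was within the ASK1f/f range. The means were 15.2 ± 3.80 and 24.0 ± 6.89 FPKM (SD, n = 5), which is 1.58-fold higher. In limma, the log2 fold change was 0.61 (SE 0.22) with an unadjusted p = 0.0165 and an adjusted p = 0.812. The exact two-sided permutation p was 0.0317 (n = 5 per group). Leaving out the library labelled ASK1f/f replicate 5 moved the log2 fold change to 0.70 (limma, adjusted p = 0.668). With each liver left out in turn, the log2 fold change ranged from 0.49 to 0.77. At its 3′ side Nr1d1 shares 1075 bases with Thra, the thyroid hormone receptor α gene on the other strand. The sources name both directional and non-directional library protocols, so reads there may not be separable by strand. Thra was at 1.79 to 5.03 FPKM, had a log2 fold change of 0.27 (SE 0.19), and followed Nr1d1 over the livers (r = 0.87, n = 10, a description).

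Nr1d2, encoding REV-ERBβ, did not stand with Nr1d1. It was at 15.2, 11.1, 17.2, 15.2 and 14.9 FPKM in ASK1f/f livers and at 15.9, 13.1, 7.72, 12.0 and 22.9 FPKM in ASK1+hep livers, whose range enclosed the whole ASK1f/f range. The log2 fold change was -0.10 (SE 0.23). The liver with the most Nr1d1, ASK1+hep replicate 3, had the least Nr1d2.

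Libraries whose labels start with CC came from 8 of the mice and those starting with SN from 2, replicate 1 of each genotype. Within the 8 CC livers the log2 difference was 0.73 for Nr1d1 (exact two-sided permutation p = 0.0286, the smallest that 4 livers against 4 allow) and -0.58 for Per2 (exact permutation p = 0.0571). The SN livers, 1 of each genotype, allow no test.

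The output genes showed large differences between mice and none between genotypes past the test. Dbp was at 58.9, 20.9, 42.0, 42.6 and 30.6 FPKM in ASK1f/f livers and at 42.1, 34.2, 68.5, 55.8 and 28.1 FPKM in ASK1+hep livers, with a log2 fold change of 0.23 (SE 0.29). It shares 737 bases with Sphk2 on the other strand, which was at 11.0 to 21.0 FPKM. Nfil3, its opponent on D-boxes, was at 5.23, 26.5, 4.45, 7.00 and 17.1 FPKM in ASK1f/f livers and at 7.03, 14.3, 8.71, 13.9 and 9.64 FPKM in ASK1+hep livers. The libraries labelled ASK1f/f replicates 2 and 5 held the highest Nfil3 values of all 10, and the log2 fold change was 0.09 (SE 0.41). Ciart, a repressor of the ARNTL complex also called CHRONO, was at 16.4, 11.3, 19.5, 10.9 and 12.3 FPKM in ASK1f/f livers and at 13.5, 7.94, 13.5, 4.55 and 21.7 FPKM in ASK1+hep livers. The lowest and the highest Ciart value were both in ASK1+hep livers, replicates 4 and 5, and the log2 fold change was -0.31 (SE 0.32). Ciart lies within the antisense transcript C920021L13Rik (0.0459 to 0.569 FPKM), and Per3 within Camta1 on the same strand (0.161 to 0.329 FPKM).

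**Figure D2:**
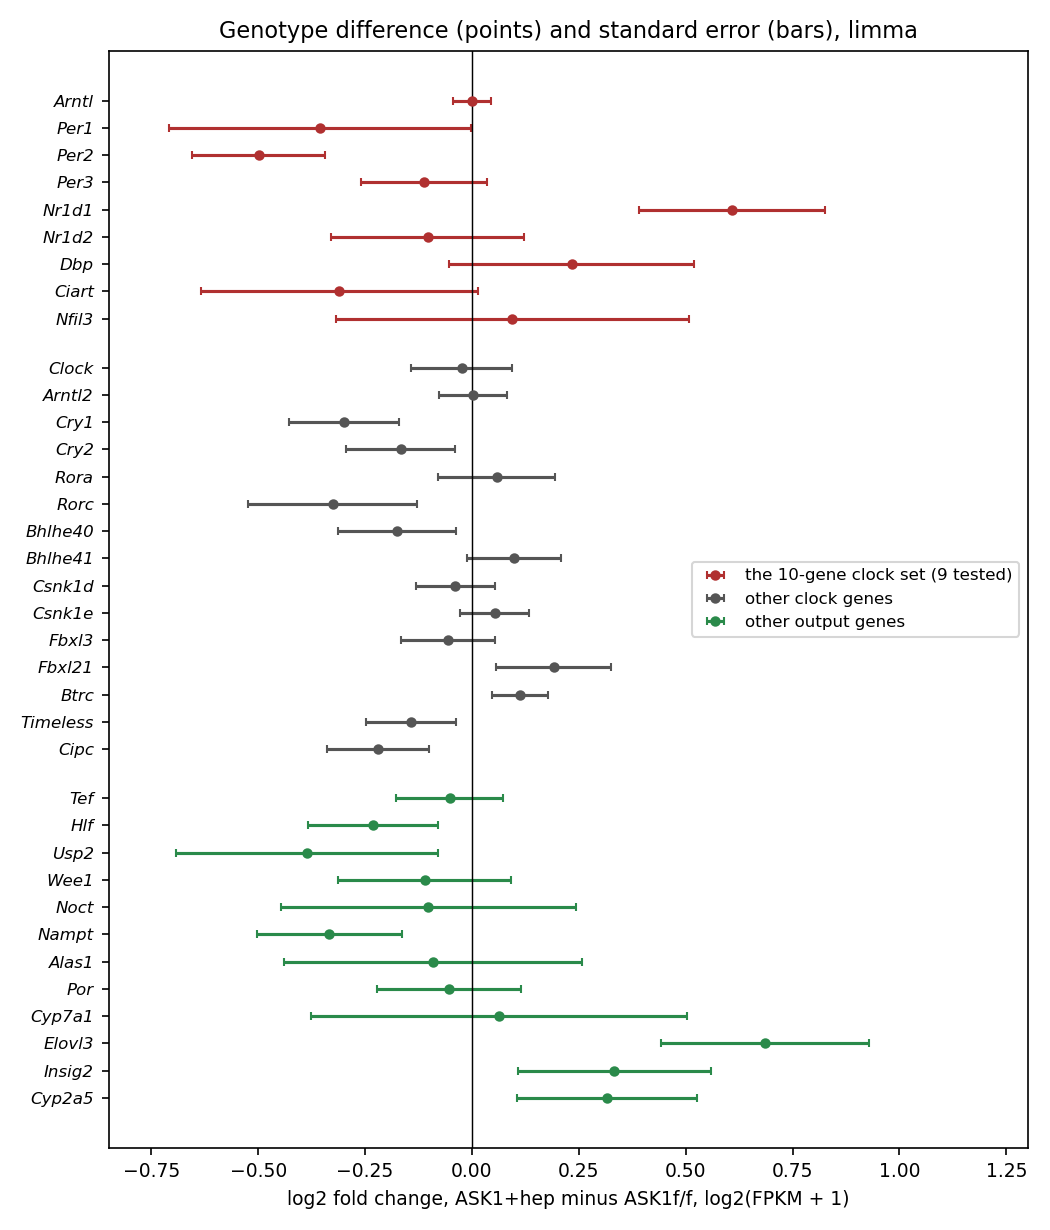
Log2 fold change between genotypes (horizontal axis, ASK1+hep minus ASK1f/f on the log2(FPKM + 1) scale; points, limma estimate; bars, 1 SE; 5 livers per group) for the 9 clock genes tested and for 27 other clock and output genes. Nr1d1 at 0.61 and Per2 at -0.50 lie farthest from 0 among the clock genes, and Elovl3 at 0.69 among the others.

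Among wider lists, 1 of 15 other clock genes tested and 1 of 12 other output genes had an unadjusted p under 0.05 in limma, in opposite directions, against 5.77% of all genes, so these counts are about those of the background. Cry1, a partner of the PER proteins, was lower in ASK1+hep livers, at 1.31 ± 0.342 against 1.85 ± 0.439 FPKM (SD, n = 5). Its log2 fold change in limma was -0.30 (SE 0.13) with an unadjusted p = 0.0398 and an adjusted p = 0.812, and the exact two-sided permutation p was 0.0635 (n = 5 per group). Btrc, a subunit of the ubiquitin ligase that acts on PER proteins, had an exact permutation p of 0.0159, but an unadjusted p = 0.111 in limma with a log2 fold change of 0.11 (SE 0.065), so the 2 tests place these genes on different sides. It was named after its values were seen. Elovl3, a rhythmic elongase of very long chain fatty acids, was higher, at 128 ± 22.4 against 84.4 ± 41.0 FPKM (SD, n = 5), with a log2 fold change in limma of 0.69 (SE 0.24). The unadjusted p was 0.0161 and the adjusted p was 0.812 in limma. The library labelled ASK1f/f replicate 5 had 157 FPKM of Elovl3 and the other 4 livers of its group 61.0 to 76.5 FPKM. The median log2 fold change was -0.04 in the first list and -0.07 in the second, against -0.01 over all genes tested. Of 9 glucocorticoid-responsive genes tested, 7 were lower on average in ASK1+hep livers, with a median of -0.35 and 0 at an unadjusted p under 0.05. Of 10 genes of fasting and feeding and 6 of temperature, 0 reached it, with medians of -0.06 and -0.08.

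Over the 10 livers, 4 of the 5 pairs with the lowest unadjusted p set Arntl and Nfil3 on one side and Dbp and Per3 on the other, but no pair passed after adjustment. Correlations were computed for all 45 pairs, and 0 of them passed a Benjamini-Hochberg adjusted permutation p of 0.05 (lowest adjusted p = 0.0864). An unadjusted permutation p under 0.05 was found for 7 pairs, 3 of them with Arntl. Of 13305 other genes, 12.0% were associated with Arntl at an unadjusted p under 0.05 in limma with genotype in the fit. No such share from limma was worked out for the other clock genes. All pairs come from the same 10 livers and libraries, so they are not independent of each other.

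Arntl and Dbp, an activator and its target, had a negative r (r = -0.81, permutation p = 0.00574, adjusted p = 0.0864, rho = -0.79 with permutation p = 0.0093, n = 10). The 4 livers with the least Dbp were the 4 with the most Arntl, ASK1f/f replicates 2 and 5 and ASK1+hep replicates 2 and 5. ASK1+hep replicate 3 had the least Arntl and the most Dbp. With each genotype centred on its mean, r was -0.83 (exact within-genotype permutation p = 0.00569). It was -0.79 without the 2 livers farthest from the median of Arntl and -0.78 over the 8 CC livers. Among the 13305 genes tested beside Arntl, 0.571% had an r with Arntl at least as low.

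Arntl and Nfil3 had a positive r (r = 0.79, permutation p = 0.00704, adjusted p = 0.0864, rho = 0.85 with permutation p = 0.00283, n = 10). ASK1f/f replicates 2 and 5 and ASK1+hep replicate 2 were the 3 highest livers for both genes. The r was 0.79 after centring, 0.91 without the 2 livers farthest from the median and 0.76 over the CC livers, and 0.782% of genes had an r at least as high. Arntl and Per3 had a negative r (r = -0.74, permutation p = 0.0171, adjusted p = 0.133, rho = -0.71 with permutation p = 0.0274, n = 10), with r at -0.76 after centring, -0.93 without the 2 farthest livers and -0.83 over the CC livers. For this pair, 1.90% of genes had an r with Arntl at least as low. Scaling by all reads in place of the deposited library sizes left r at -0.78 for Dbp and 0.76 for Nfil3 and moved it to -0.50 for Per3 (adjusted permutation p = 0.363). Differences between same-numbered livers of the 2 genotypes had an r of -0.55 for Arntl and Dbp, 0.39 for Arntl and Nfil3 and -0.61 for Arntl and Per3, over 5 numbers and given as a description. With each liver left out in turn, r ranged from -0.92 to -0.72 for Dbp, from 0.75 to 0.93 for Nfil3 and from -0.89 to -0.69 for Per3. All these pairs rest on the 9 to 25 Arntl reads per liver. Chi-square per degree of freedom of these reads against counting alone was 1.29, and the counting intervals of the lowest and the highest liver touched. The order of the livers by Arntl is therefore uncertain.

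The remaining pairs with Arntl did not reach an unadjusted p of 0.05. Its r was -0.22 with Per2, -0.16 with Per1, -0.10 with Nr1d1, 0.27 with Nr1d2, -0.34 with Ciart and -0.38 with Npas2, with unadjusted permutation p-values from 0.287 to 0.786. For the REV-ERB genes, repressors of Arntl, neither r was thus past the test, and the r with Nr1d2 changed sign on ranks (rho = -0.19).

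Pairs without Arntl were named after their values were seen, as those with the lowest p. Per3 and Nfil3 had a negative r (r = -0.79, permutation p = 0.00637, adjusted p = 0.0864, rho = -0.82 with permutation p = 0.00612, n = 10). Each gene has 135 reads or more in every liver. This r was -0.80 after centring (exact within-genotype permutation p = 0.0108) and -0.79 over the CC livers, which are also the livers left after removing the 2 farthest from the median of Per3. It ranged from -0.88 to -0.76 with each liver left out in turn. Among all genes, 0.331% had an r with Nfil3 at least as low.

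Per2 and Nr1d1 had a negative r over all livers (r = -0.80, permutation p = 0.00768, adjusted p = 0.0864, rho = -0.87 with permutation p = 0.0022, n = 10). The genotype difference of both genes enters this value. After centring, r was -0.62 (exact within-genotype permutation p = 0.0857), while it was -0.89 without the 2 livers farthest from the median of Per2 and -0.78 over the CC livers. It ranged from -0.88 to -0.76 with each liver left out. Among all genes, 0.421% had an r with Per2 at least as low, and 0.894% had an r with Nr1d1 at least as low. The ratio of Nr1d1 to Per2 in FPKM was 1.84, 1.41, 1.55, 2.61 and 3.92 in ASK1f/f livers 1 to 5 and 2.26, 4.75, 7.50, 6.86 and 5.25 in ASK1+hep livers 1 to 5. Only ASK1+hep replicate 1 lay within the ASK1f/f range. This ratio restates the genotype differences of the 2 genes, which go in opposite directions, and is no further support for them.

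**Figure D3:**
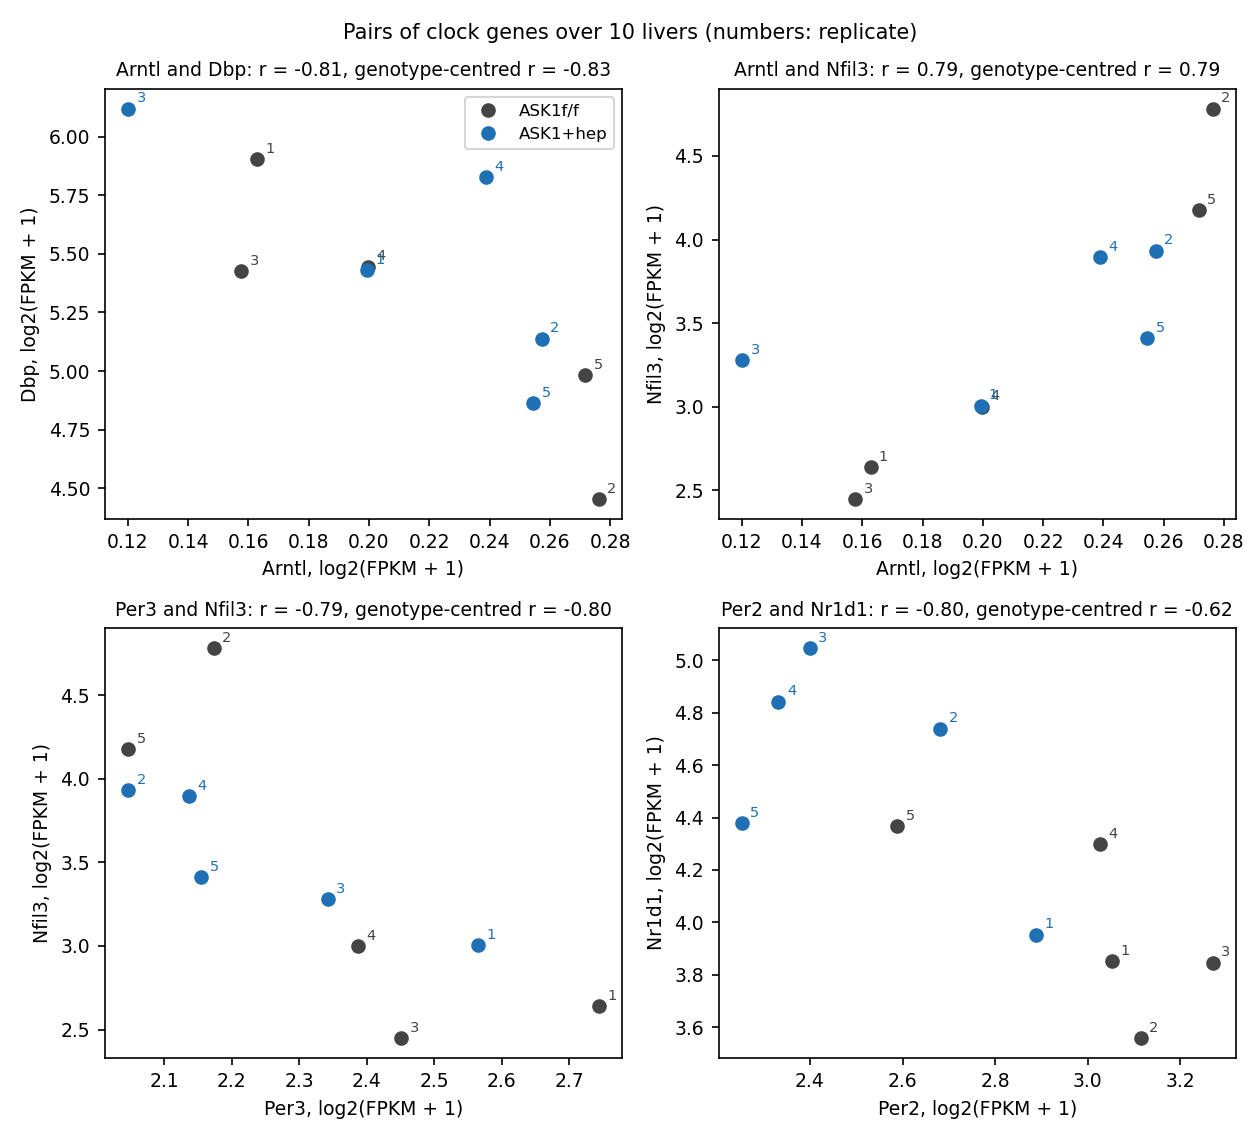
Log2(FPKM + 1) of gene pairs over the livers (both axes; points, 10 livers numbered by replicate and coloured by genotype). Dbp is low and Nfil3 high where Arntl is high, Nfil3 is low where Per3 is high, and Per2 and Nr1d1 lie on a falling line along which the genotypes are partly separated.

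Dbp and Nfil3, the D-box activator and repressor, had an r of -0.61 (permutation p = 0.06, adjusted p = 0.337, rho = -0.58 with permutation p = 0.0872, n = 10), which was -0.43 without the 2 livers farthest from the median of Dbp. The ratio of Dbp to Nfil3 in FPKM was 11.3, 0.788, 9.43, 6.08 and 1.79 in ASK1f/f livers 1 to 5 and 5.98, 2.40, 7.87, 4.02 and 2.92 in ASK1+hep livers 1 to 5. The ASK1f/f livers held both the lowest and the highest ratio, and every ASK1+hep liver lay between them. Per1 and Ciart had an r of 0.71 (permutation p = 0.0411, adjusted p = 0.264, n = 10), but rho was 0.37 (permutation p = 0.294), and r was 0.35 without the 2 livers farthest from the median of Per1. This relation rests on those livers, ASK1+hep replicate 4 above all, without which r was 0.091. Npas2 and Nr1d1 (r = 0.69, permutation p = 0.0177, n = 10) are not read further because of the 0 to 5 Npas2 reads.

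**Figure D4:**
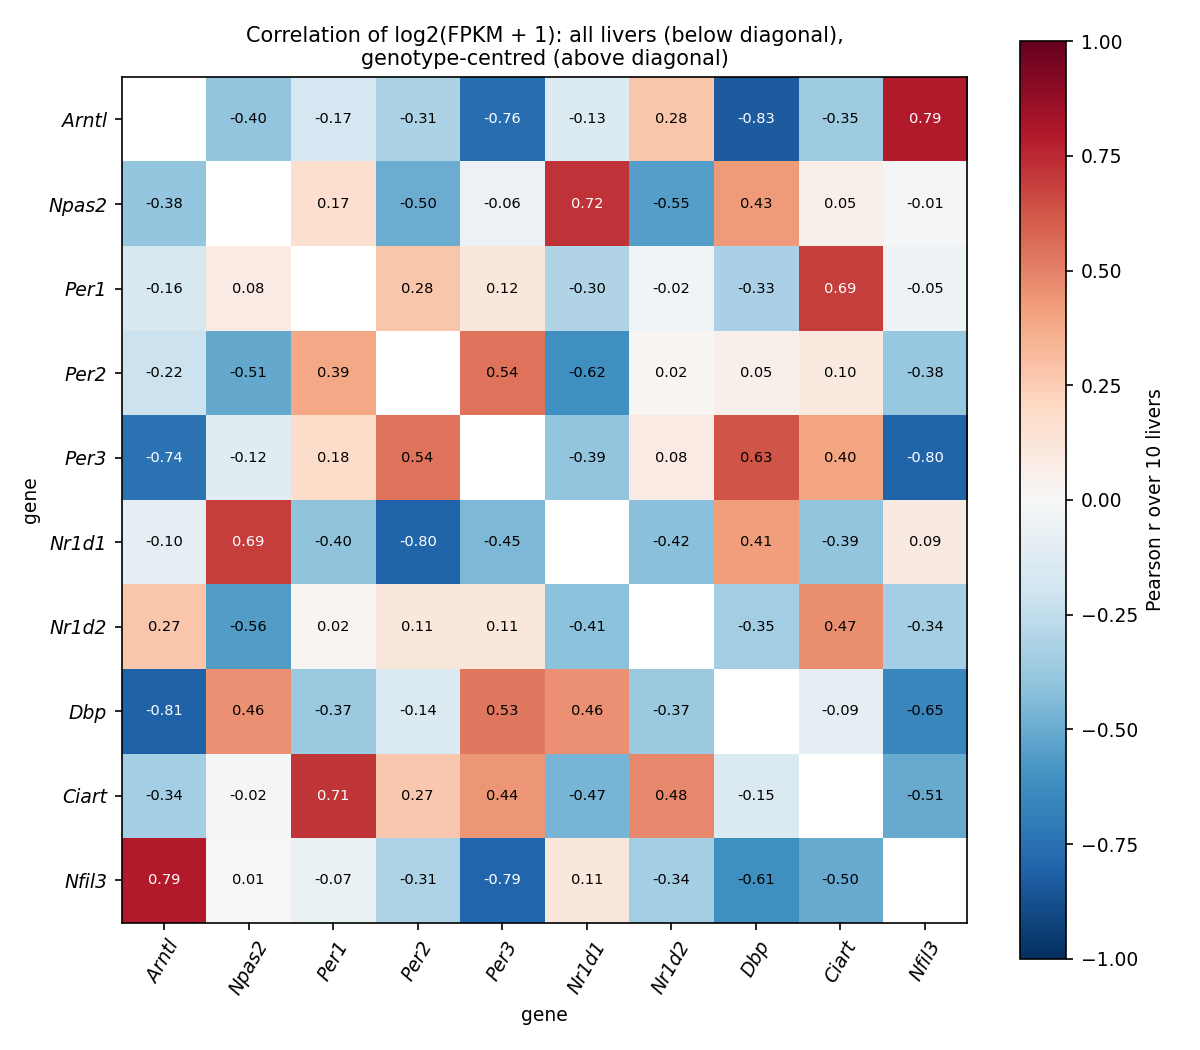
Pearson r of log2(FPKM + 1) over 10 livers for the 45 pairs of clock genes (both axes, genes; colour and numbers, r), below the diagonal as measured and above it after centring each genotype on its mean. Arntl stands at -0.81 with Dbp, -0.74 with Per3 and 0.79 with Nfil3 before centring and at -0.83, -0.76 and 0.79 after it.

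**Figure D5:**
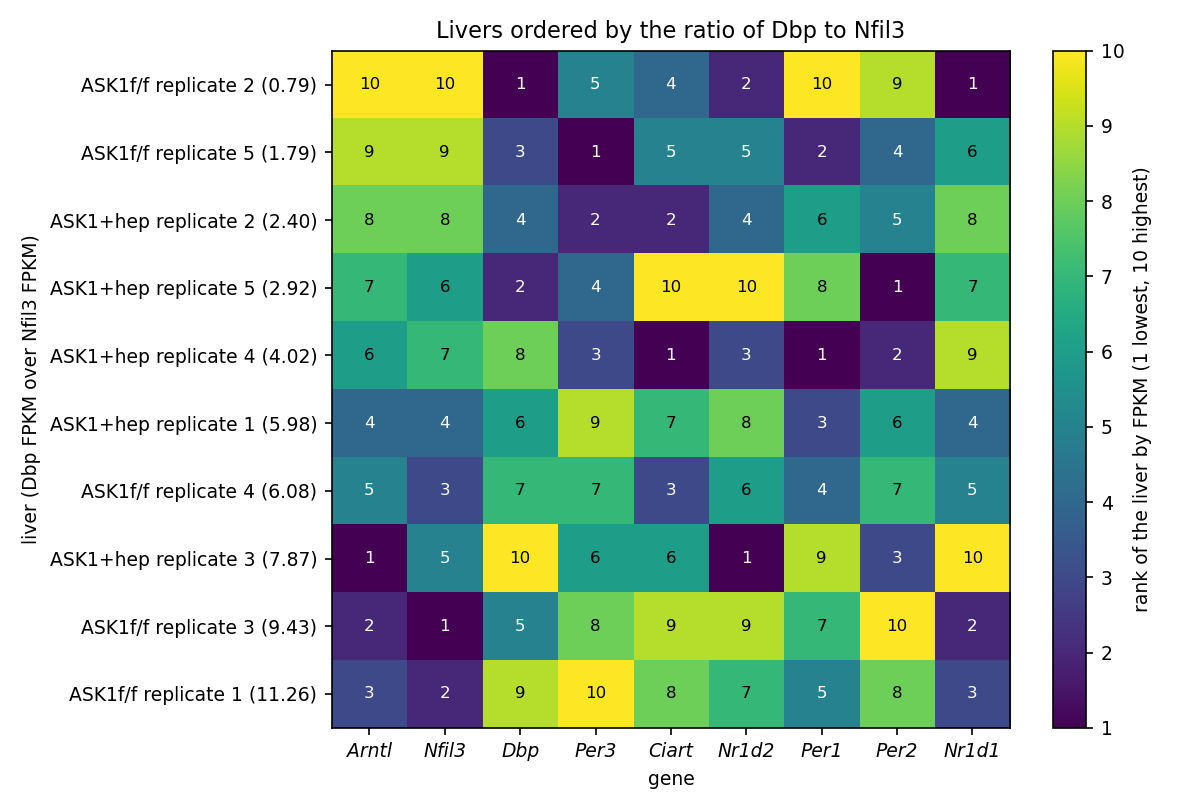
Rank of each liver by FPKM (1 lowest, 10 highest; colour and numbers) for 9 clock genes (horizontal axis), with livers ordered by the ratio of Dbp to Nfil3 (vertical axis, ratio in brackets). Arntl has ranks 6 to 10 in the upper 5 livers and 1 to 5 in the lower 5, with both genotypes in each part, while Nr1d1, Nr1d2 and Per1 follow no such order.

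With genotype in the fit, Arntl's level was associated with 1 of 13305 genes at an adjusted p of 0.05 (0.00752%), and with 1599 (12.0%) at an unadjusted p under 0.05, from limma. Of the 8 other clock genes tested, 3 had an unadjusted p under 0.05, namely Nfil3 with a positive slope (adjusted p = 0.218), and Dbp (adjusted p = 0.187) and Per3 (adjusted p = 0.355) with negative ones. Positive slopes at that p were found for 5.45% of all genes and negative ones for 6.57%. The gene called was Slc41a2, a magnesium transporter, with a positive slope and an adjusted p = 0.0416. Leaving out 1 liver moved this count between 0 and 3. Among the 20 genes with the lowest p were, with positive slopes, the fibrinogen chains Fga and Fgb (adjusted p = 0.0752 each), the lipopolysaccharide binding protein Lbp (adjusted p = 0.0752) and the serine protease inhibitor Serpina3n (adjusted p = 0.0842), all from limma and named after their values were seen.

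The genes most like a clock gene over the 10 livers were listed by r among 10043 genes with a mean of at least 1 FPKM, as a description. For Arntl they were Pawr (r = 0.92), Spata13 (0.92) and Nfkbiz (0.91), an inducible nuclear IκB protein, and in opposition Rere (-0.93), Smim19 (-0.92) and Abhd12 (-0.92). For Dbp they were Fbxo7 (0.95), Eepd1 (0.93) and Rab3ip (0.92), and those in opposition included Gtf2a2 (-0.94) and Pde12 (-0.94). For Per2 they were Mylk (0.93), myosin light chain kinase, the pseudogene Gm11341 (0.90) and Ahcy (0.89), and in opposition Sh3bgrl2 (-0.95), Nr0b2 (-0.93), the nuclear corepressor SHP, and Aldh3a2 (-0.93). With 10 livers and this many genes, values of this size arise at the ends of any such list.

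Other clock and output genes varied with the 10 as well. The following were named after their values were seen, out of 590 pairs of a clock gene with 1 of 59 listed genes, and are given without a test over 10 livers that share their libraries. Wee1, a cell cycle kinase under clock control, stood at r = -0.87 with Nfil3 and 0.84 with Per3. Tef, a relative of Dbp on D-boxes, stood at -0.81 with Nfil3 and -0.78 with Arntl. Fbxl21 and Bhlhe41 stood at 0.91 and 0.85 with Dbp, and Hlf at 0.82 with Nr1d2. Nampt, the enzyme of NAD salvage, stood at -0.86 with Nr1d1. Among glucocorticoid-responsive genes, Klf9 stood at 0.91 with Nr1d2 and Errfi1 at 0.88 with Per1. Angptl4, a fasting-induced lipase inhibitor, stood at 0.85 with Per1. Both values with Per1 include ASK1+hep replicate 4, the liver with the least Per1, Errfi1 and Angptl4.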

How the data were processed

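Poly-A RNA of 10 mouse livers was sequenced, 5 ASK1f/f and 5 ASK1+hep. In the study's methods, the authors cleaned reads (fastp is named in the submitters' processing notes), mapped them with Hisat2, counted them per gene with FeatureCounts and deposited FPKM values. Aligner settings and genome build are not given in the sources used here. Of 54409 genes found in GENCODE M21 (GRCm38), 98.3% had identical coordinates, including the 10 clock genes.

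FPKM times gene length, divided by 1 step per library worked out from the values, was a whole number of reads in 100.0% of values (tolerance 0.01 reads). A gene was tested if 5 or more livers had 10 or more reads, after scaling to the median total, and all livers together 15 or more. The test was limma 3.58.1 (R 4.3.3) on log2(FPKM + 1), with its trend option and p-values adjusted by Benjamini-Hochberg. The recovered reads entered the filter, the read totals, the counting errors and the alternatives limma-voom and scaling by all reads. No negative binomial test was run on them. Fold changes on this scale understate those of low genes. Single genes were compared with exact permutation tests, and pairs with permutation tests, all two-sided, in numpy 2.4.6. Benjamini-Hochberg adjustment for pairs was over 45 pairs. The Poisson intervals used scipy 1.17.1. Figures used matplotlib 3.10.9. Fits were tested on simulated data.

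The clock genes and lists were chosen with earlier results of these data known. The named genes are all 10, listed clock and output genes at an unadjusted p under 0.05, all pairs with Arntl, the genes most like Arntl, Dbp and Per2, Map3k5, and the listed genes most like Per1. Others are marked, and 1 gene that the rule names is not reported here. Alternatives were other filters, pseudocounts and scalings, limma-voom, the replicate number or label prefix in the fit, and leaving out each liver. For the closest pair of libraries, chi-square per degree of freedom against counting error was 17.8.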

Additional observations from a re-analysis of the deposited data

Results flagged for a closer look

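Within each genotype, the highest or lowest of 5 livers was compared with the rest for the 10 clock genes, Map3k5, Elovl3, Cry1, Errfi1 and Angptl4, which made 30 groups of values. A liver far from the others was found in 3 of them, and chance gives about 1 in 20. Map3k5 in the library labelled ASK1f/f replicate 5 was at 19.8 FPKM, against 4.71 to 6.88 FPKM in the other ASK1f/f livers. Elovl3 in the same liver was at 157 FPKM, against 61.0 to 76.5 FPKM. Npas2 in ASK1+hep replicate 3 was at 0.0757 FPKM, which is 5 reads. The causes were not tested.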

How the results depend on the processing

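The 2 clock genes at an unadjusted p under 0.05 for genotype, Per2 and Nr1d1, kept their direction and stayed under it in all 19 alternatives fitted across genes, with adjusted p-values from 0.383 to 0.998, always above the threshold. The count of genes called was 1 with limma-voom with quality weights and 0 to 1 with a liver left out (1 without ASK1+hep replicate 5). Genes at an unadjusted p under 0.05 numbered 1222 without a filter on low reads and 557 to 1724 with a liver left out (1178 without ASK1+hep replicate 1 and 1724 without ASK1+hep replicate 5). Scaling by all reads gave 271 higher and 591 lower genes in place of 406 and 362, and moved the median log2 fold change from -0.01 to -0.05. In the other clock and output lists, the 2 genes became 1 without a filter, 4 with quality weights, 4 with scaling by all reads, and 1 to 5 with a liver left out. The 1 gene associated with Arntl became 0 without a filter, with scaling by all reads and without the 2 SN livers, 2 with log2(FPKM + 0.1), and 0 to 3 with a liver left out. The count of adjusted pairs was 0 to 1 with a liver left out. Without ASK1+hep replicate 4, Arntl and Dbp had an r of -0.92 (adjusted permutation p = 0.0179), and without ASK1+hep replicate 3, Arntl and Nfil3 had 0.93 (adjusted permutation p = 0.0193). Over all alternatives the adjusted permutation p ranged from 0.0179 to 0.703 for the first pair and from 0.0193 to 0.737 for the second. Fold changes near 0 changed sign, with Arntl at -0.0045 in limma-voom, -0.0082 with scaling by all reads and -0.0086 within the CC livers. With a liver left out, log2 fold changes ranged from -0.014 to 0.024 for Arntl, -0.51 to 0.027 for Per1, -0.28 to 0.080 for Nr1d2 and -0.15 to 0.44 for Nfil3, and r with Arntl from -0.58 to 0.30 for Npas2, -0.24 to 0.35 for Nr1d1 and -0.29 to 0.44 for Nr1d2, whose rank correlation was -0.19. Same-numbered livers of the 2 genotypes deviated together in 2 of 5 pairs (r over 0.1 across genes; mean 0.107 against -0.0275 for different numbers), and 4 of the 5 ASK1f/f livers correlated best with their own number, replicate 3 being the exception. The labels do not say that a number marks a litter or a day, so the block is not in the comparisons, although the animal tags of 4 of the 5 same-numbered pairs are consecutive and the study calls the groups littermates. Within numbers, Per2 was lower and Nr1d1 higher in the ASK1+hep liver in 5 of 5 (exact sign-flip p = 0.0625 for each, the smallest that 5 numbers allow, added after seeing the data). With the replicate block, 0 genes were called, 880 had an unadjusted p under 0.05, 2 clock genes (Per2, unadjusted p = 0.00513, and Nr1d1, 0.0181, limma) and 1 of the other listed genes did, and 0 genes were associated with Arntl. Within-number differences gave 0 pairs at an unadjusted p under 0.05, with r at 0.36 for Arntl and Per2 and 0.080 for Dbp and Nfil3. Causes were not tested. The count test, planned only for a table of counts, was not run on this FPKM table, and limma-voom took its reads. Median-ratio scaling is already that of the deposited values. Depth limits Arntl (9 to 25 reads) and Npas2 (0 to 5 reads). List counts and the CC livers were added after seeing the data.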

Other observations

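The liver that stood highest for both Map3k5 and Elovl3 in its group, that of the library labelled ASK1f/f replicate 5, also had the lowest Per2 (5.02 FPKM) and the highest Nr1d1 (19.6 FPKM) of the 5 ASK1f/f livers. ASK1+hep replicate 1 had the highest Per2 (6.40 FPKM) and the lowest Nr1d1 (14.5 FPKM) of the ASK1+hep livers. Its Map3k5, at 16.4 FPKM, was also the highest of that group. ASK1+hep replicate 4, the liver with the lowest Per1 (1.91 FPKM) and Ciart (4.55 FPKM), had Dbp at 55.8 FPKM and Per3 at 3.40 FPKM, each within the range of the other livers.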
